A study of Mus musculus with 16 samples.

Results

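Lungs of Vldlr knockout mice (KO) that had inhaled house dust mite extract (HDM) were compared with lungs of wild-type mice (WT) given the same allergen, 4 arrays against 4. These are 8 of the 16 arrays of the study, and the comparison ran over all 19938 genes that had a probe set with a single gene symbol. The other 8 arrays, 4 per genotype, came from mice given saline and served as the genotype difference without allergen. WT mice were of the strain B6129SF2/J, a hybrid laboratory strain. The knockouts were labelled Vldlr-/-, with no strain background stated in the labels. Mice received 25 µg of HDM or saline, each in 10 µl through the nose, on 5 days a week for 6 weeks. The deletion was present in all cells of the animal, so no value here belongs to the loss of the receptor in one cell type. RNA was taken from whole lung, where fewer cells of a type and less RNA per cell cannot be told apart. The labels call the 4 arrays of a group biological replicates without saying how many animals gave each RNA, so a p-value here measures only how far these samples spread, which may in part be technical.

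The very low density lipoprotein receptor, VLDLR, is a surface protein that takes up lipoprotein particles carrying apolipoprotein E and also passes on the signal of reelin through adaptor proteins inside the cell. House dust mite is a common cause of human allergic asthma. Inhaled over weeks it draws eosinophils, type 2 T cells, dendritic cells and macrophages into the mouse lung, through chemokines and the cytokines IL-4, IL-5 and IL-13, and the airway wall responds with mucus and new matrix. The question of the comparison was which of these programmes differ when the receptor is missing.

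Vldlr itself was lower in the knockouts. Under HDM its log2 level was 10.56, 10.92, 10.48 and 10.27 in the WT arrays and 9.57, 9.62, 9.40 and 9.91 in the KO arrays. All KO arrays lay below all WT arrays, by 0.93 on average (1.90-fold lower, SE 0.12, limma adjusted p = 0.000277), and under saline the KO minus WT difference was -0.76 (adjusted p = 0.00697). The probe set still gave a signal in the knockouts, and its position relative to the disrupted part of the gene was not stated in the sources at hand. Surfactant genes, which define the alveolar tissue, were high, with Sftpc at a mean of 13.99 in WT HDM and 13.80 in KO HDM and Sftpa1 at 14.35 and 14.27, near the top of a range of 3.05 to 14.7 over all arrays. These 2 genes were chosen as a check of the tissue label.

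Under HDM, 2327 genes passed at an adjusted p under 0.05, which is 11.7% of those tested. Of these, 1164 were higher (5.84% of all genes) and 1163 lower (5.83%) in the knockouts, and 5292 genes had an unadjusted p under 0.05. Most differences were small, with a median size of 0.343 on the log2 scale among the calls. Only 42 calls reached 2-fold, 29 of them higher and 13 lower in the knockouts, and the median difference over all genes was 0.02. In 1394 of the 2327 calls the 4 KO and 4 WT arrays did not overlap. Calls are chosen for groups that lie apart, so this number is no result of its own. The share without overlap over all genes was not tallied. Under saline the same genotype contrast gave 46 calls (0.231%), 18 higher and 28 lower. A direct test of whether the genotype difference under HDM was unlike that under saline gave 160 calls (0.802%), of which 146 had also passed under HDM. The count rested on the spread shared by all 4 groups: a fit of the 8 HDM arrays alone gave 390 calls. It also moved with single arrays, to 1249 without WT HDM 2, 1475 without WT HDM 4, 968 without KO HDM 1, 1416 without KO HDM 2, 1119 without KO HDM 3 and 3831 without KO HDM 4.

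Array KO HDM 4 stood apart from the other knockouts. On the first principal component of the 8 HDM arrays, which held 49.6% of the variance, KO HDM 1, 2 and 3 lay at 21.2, 15.4 and 18.99 and KO HDM 4 at -1.62. The WT arrays lay at -12.85, -26.13, -3.17 and -11.82, so on this component KO HDM 4 was nearer to WT HDM 3 than to any knockout. On the second component, with 14.2% of the variance, it lay at 5.98, nearer to the other knockouts (1.38 to 2.93) than to WT HDM 3 (-13.06). In many of the genes below it is the array that comes closest to the WT group. Its label was kept, and its Vldlr level of 9.91 lay below every WT array. Among the saline arrays, WT saline 2 and 3 read high for genes that HDM raises. Without them 1790 genes passed under HDM, and the test against the saline difference gave 12 calls in place of 160.

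A further difference between the groups ran through the clock genes and bears on everything that follows. A score over 16 genes of the circadian clock, as the mean z-score with the genes of the opposite phase reversed in sign, was 0.97, 1.36, 0.33 and 1.10 in the WT HDM arrays and -0.28, -0.34, -0.40 and 0.22 in the KO HDM arrays. All WT HDM arrays lay above all KO HDM arrays, and the saline arrays lay between -0.84 and -0.13. The labels give no collection times. With this score as a covariate 4 genes passed, Hal, Rps3a1, Fam107a and Meg3 (the second and the last named after their values were seen), and 1184 had an unadjusted p under 0.05. Because the score separated the genotypes among the HDM arrays, the median standard error rose from 0.073 to 0.126 in that fit. For the same reason, what goes with the clock score in the other calls cannot be told apart from genotype. Of the 2327 calls, 2183 (93.8%) kept their direction in that fit, with a median size of 0.176 in place of 0.343. In that fit 0 members of the gene lists below passed, and list medians moved unequally. The median of the plasma cell genes went from 0.21 to -0.32, that of the B cell genes from 0.40 to -0.14 and that of the monocyte genes from 0.19 to -0.24, so that each turned its direction, while that of the mucous genes went from 0.15 to 0.27.

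**Figure D1:**
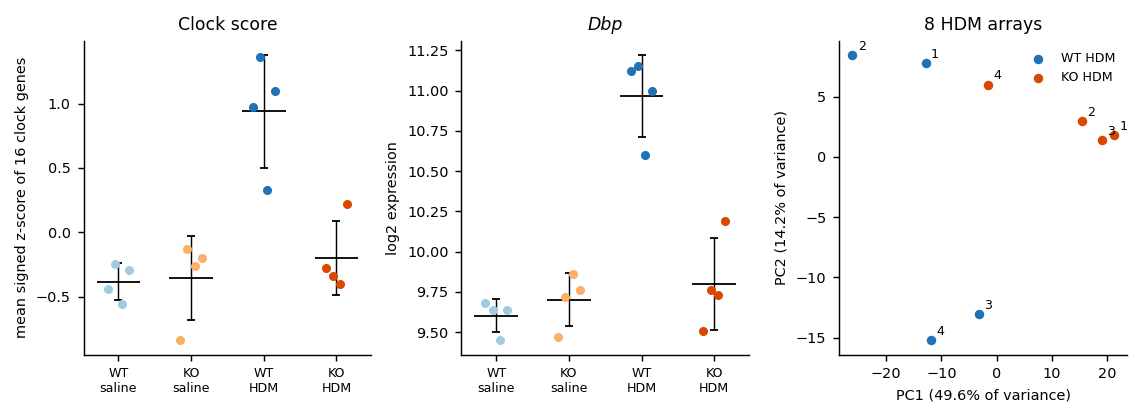
The left panel plots the clock score of each array (mean signed z-score of 16 clock genes), the middle panel the log2 level of Dbp, and the right panel the 8 HDM arrays on the first 2 principal components, numbered by replicate; bars are means and whiskers SD of 4 arrays. WT HDM arrays stand at 0.33 to 1.36 on the score and KO HDM arrays at -0.40 to 0.22, and KO HDM 4 lies apart from the other knockouts at -1.62 on the first component.

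Chemokines that recruit eosinophils and type 2 T cells were the group with the highest median. Of 10 measured ligands and receptors, 7 rose and 0 fell in the knockouts, with a median difference of 0.75 against 0.02 for all genes. The count was 5 without WT HDM 2, KO HDM 1 or KO HDM 3, and 9 without KO HDM 4. The largest rise of the whole comparison was that of Ccl24, which encodes eotaxin-2, a ligand of the eosinophil receptor CCR3. Its level was 7.80, 7.88, 8.21 and 7.76 in WT HDM and 10.70, 10.85, 12.18 and 9.30 in KO HDM. The KO arrays were all above the WT arrays, though spread over almost 3 log2 units, with KO HDM 3 highest and KO HDM 4 lowest. The mean difference was 2.85 (SE 0.41, 7.19-fold, limma adjusted p = 0.000814), against -0.76 under saline (adjusted p = 0.722), and the 2 differences differed from each other (adjusted p = 0.01).

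The other eotaxin on the array, Ccl11, stood at 9.85, 10.10, 10.81 and 10.56 in WT HDM and at 10.72, 11.19, 11.42 and 11.27 in KO HDM. The groups overlapped in 1 array each, WT HDM 3 and KO HDM 1, and the difference of 0.82 passed (SE 0.19, limma adjusted p = 0.0114). Ccl8, a further ligand of type 2 cells in mice, was 1.27 higher (SE 0.29, adjusted p = 0.0116), also with overlap. With the clock score in the fit its difference was -0.02 (SE 0.36). Ccl22 and Ccl17, the dendritic cell ligands of the T cell receptor CCR4, were higher by 0.82 (adjusted p = 0.0087) and 0.67 (adjusted p = 0.0261). The call for Ccl17 was lost without WT HDM 2, WT HDM 3, KO HDM 1 or KO HDM 3, up to an adjusted p of 0.0988. Ccr8, a receptor of type 2 and regulatory T cells, stood at 7.67, 7.49, 7.96 and 7.78 in WT HDM and at 8.67, 8.61, 9.08 and 8.40 in KO HDM. Its groups were clear of each other by 0.96 on average (SE 0.12, adjusted p = 0.000371), and this difference was unlike that under saline (adjusted p = 0.0147). Ccr3, the eotaxin receptor, did not pass (0.45, SE 0.18, adjusted p = 0.12), named here after its value was seen.

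The type 2 cytokines themselves moved less than these chemokines. In their list 7 of 15 members rose and 0 fell, with a median of 0.30. The cytokines proper lay near the threshold: Il13 was 0.30 higher (SE 0.09, limma adjusted p = 0.0329, lost without WT HDM 1, WT HDM 2, KO HDM 1, KO HDM 2 or KO HDM 3, up to 0.11), while Il5 at 0.35 (adjusted p = 0.0651) and Il4 at 0.26 (adjusted p = 0.0603) did not pass, all 3 named after their values were seen. Receptors rose further. Il13ra2, a high-affinity receptor that binds IL-13 and is itself induced by it, went from 5.78, 5.94, 6.24 and 6.07 in WT HDM to 6.49, 7.34, 7.71 and 6.43 in KO HDM. No KO array overlapped a WT array, with KO HDM 2 and 3 highest, and the difference was 0.99 (SE 0.20, adjusted p = 0.00664). Il17rb, the receptor subunit for IL-25, was 0.61 higher (SE 0.09, adjusted p = 0.000654) and differed from its saline difference (adjusted p = 0.0175). Il10, an inhibitory cytokine, was 0.72 higher (SE 0.15, adjusted p = 0.00671), and Il21r, the receptor of IL-21, 0.47 higher (adjusted p = 0.00655).

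**Figure D2:**
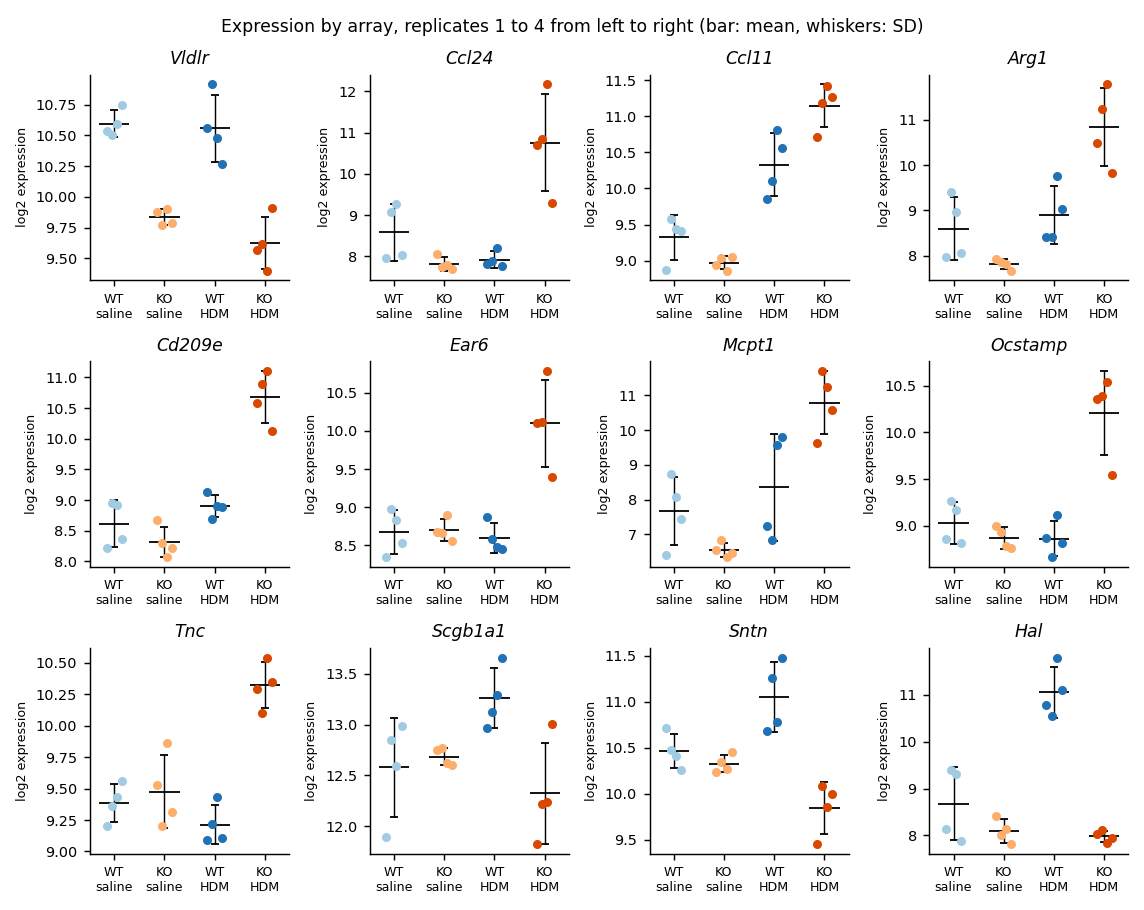
Log2 expression of 12 genes on every array, by group, with replicates 1 to 4 from left to right, the mean as a bar and the SD as whiskers (n = 4); each panel has its own axis, which does not start at 0. Ccl24, Arg1, Cd209e, Ear6, Ocstamp and Tnc are higher on all 4 KO HDM arrays than on any WT HDM array, Mcpt1 and Ccl11 overlap, and Hal stands at 10.55 to 11.79 in WT HDM alone.

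To show what lies upstream of members of 3 lists, promoter windows of the 250 bases before the transcription start were read from RefSeq (build GRCm38.p6), which held 15614 of the measured genes. The motif TTCNNNNGAA, to which STAT6, the transcription factor downstream of IL-4 and IL-13, can bind, was searched on both strands and reads the same on each. It was present in 980 of those genes (6.28%) and in 4 of the 19 type 2 cytokine and chemokine genes with a window, namely Ccl17, Il4, Il9 and Il33. Of the 11 that passed and had a window, 1 held it, Ccl17. The motif TTTCNNTTTC, the interferon-stimulated response element, was searched in both orientations and was present in 531 genes (3.40%) and in 4 of 7 interferon response genes with a window: Ifit1, Ifit3, Oas1a and Rsad2. Of the 3 that passed and had a window, 1 held it, Ifit1. The clock motif CACGTG, the E-box that reads the same on both strands, was present in 1266 genes (8.11%) and in 5 of 14 clock genes: Bhlhe41, Ciart, Cry1, Per1 and Tef. Of the 9 that passed and had a window, 2 held it, Bhlhe41 and Tef. Genes in these sentences are named because they hold a match, and most of them did not pass. The call of Ifit1 (0.63, limma adjusted p = 0.0457) was lost without any 1 of 10 of the 16 arrays, up to 0.15, and Ifit1 also lies within 10 Mb of Vldlr. The call of Bhlhe41 (-0.57, limma adjusted p = 0.029) was lost without WT HDM 3, WT HDM 4 or KO HDM 3, up to 0.0963. A match describes letters, not a bound site. The following stretches of 120 bases, 5′ to 3′ on the strand of the gene, show the matches in capitals for the 4 genes that passed and hold one. They lie at chr8:94810254-94810373 on the + strand (Ccl17), chr19:34640740-34640859 on the + strand (Ifit1), chr15:81802501-81802620 on the + strand (Tef) and chr6:145865499-145865618 on the - strand (Bhlhe41).
Ccl17: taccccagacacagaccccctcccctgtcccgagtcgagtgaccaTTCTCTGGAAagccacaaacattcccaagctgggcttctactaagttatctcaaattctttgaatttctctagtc
Ifit1: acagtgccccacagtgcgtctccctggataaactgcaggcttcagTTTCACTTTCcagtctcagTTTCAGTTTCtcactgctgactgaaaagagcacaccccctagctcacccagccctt
Tef: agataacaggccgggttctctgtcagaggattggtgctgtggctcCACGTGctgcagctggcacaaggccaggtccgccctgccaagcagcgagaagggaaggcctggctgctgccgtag
Bhlhe41: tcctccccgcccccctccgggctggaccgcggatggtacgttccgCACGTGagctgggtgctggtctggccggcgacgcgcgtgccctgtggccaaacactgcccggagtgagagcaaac
Ifit1 holds 2 matches, 104 and 85 bases before its start, and the other 3 stretches hold 1 each.

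Among the effector cells of allergy, eosinophil and mast cell genes rose in part. Of 8 eosinophil genes 3 rose and 0 fell (median 0.38). Ear6, a ribonuclease of eosinophil granules, was at 8.87, 8.58, 8.48 and 8.45 in WT HDM and at 10.11, 10.12, 10.79 and 9.39 in KO HDM. Each KO array was above each WT array, by 1.51 on average (SE 0.21, limma adjusted p = 0.000606). Prg2, the major basic protein of the granule, was 0.58 higher (adjusted p = 0.00539), and Alox15, the 15-lipoxygenase of eosinophils and macrophages, 0.78 higher (adjusted p = 0.0226, lost without WT HDM 2, KO HDM 1 or KO HDM 3, up to 0.0845). Rnase2b, a ribonuclease of the same family that was not on the list, was 1.02 higher (adjusted p = 0.00143). Defining eosinophil genes did not pass: Siglecf was 0.14 higher (SE 0.11, adjusted p = 0.438) and Epx, eosinophil peroxidase, 0.04 higher (SE 0.07, adjusted p = 0.75), both named after their values were seen. Siglecf is also on the alveolar macrophage list. Epx had means of 7.59 in WT saline and 7.51 in WT HDM, so its probe set showed no rise with HDM and says little here. Ccr3, also on the eosinophil list, had means of 8.36 in WT saline and 10.14 in WT HDM, and it did not pass by genotype, as given above. Il5ra, on the same list, had means of 7.75 in WT saline and 9.04 in WT HDM. It did not pass by genotype either (0.32, SE 0.24, limma adjusted p = 0.43, named after its value was seen).

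Of 13 mast cell and basophil genes 4 rose and 1 fell, and the count of rises was 0 without WT HDM 2 or KO HDM 2, 1 without KO HDM 3 and 2 without WT HDM 1 or KO HDM 1. The proteases of mucosal mast cells had the largest differences and the widest spread. Mcpt1 stood at 7.24, 6.83, 9.56 and 9.81 in WT HDM and at 9.62, 11.71, 11.24 and 10.58 in KO HDM. The WT arrays fell into a low pair, WT HDM 1 and 2, and a high pair, WT HDM 3 and 4, and the highest WT array reached into the KO range. The difference was 2.43 (SE 0.61, 5.37-fold, limma adjusted p = 0.0171). Mcpt2 had the same split, with 7.53, 7.31, 10.29 and 10.15 in WT HDM and 10.24, 11.60, 11.07 and 10.70 in KO HDM (2.08, SE 0.60, adjusted p = 0.0324). Neither call held without WT HDM 2, KO HDM 2 or KO HDM 3, and that of Mcpt2 also failed without WT HDM 1 or KO HDM 1, with adjusted p up to 0.061 for Mcpt1 and 0.114 for Mcpt2. Kit, the stem cell factor receptor, fell by 0.39 (adjusted p = 0.011). The chymases of connective tissue mast cells did not pass, with Cma1 0.06 higher (SE 0.07, adjusted p = 0.63, named after its value was seen).

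Lipid mediator genes were mixed, with 3 of 16 higher and 2 lower. The count of rises was 1 without WT HDM 2, KO HDM 1 or KO HDM 3 and 6 without KO HDM 4, and that of falls was 1 without WT HDM 1, WT HDM 4, KO HDM 1 or KO HDM 2. Cysltr2, a receptor for cysteinyl leukotrienes, rose from 7.22, 7.25, 6.79 and 6.58 in WT HDM to 7.96, 8.07, 8.30 and 7.84 in KO HDM, without overlap (1.08, SE 0.20, limma adjusted p = 0.00346). Ptgis, the prostacyclin synthase, fell by 0.55 (adjusted p = 0.00492). In the Il1 and Il18 pathway 2 of 12 rose and 1 fell: the decoy receptor Il1r2 was 0.98 higher (adjusted p = 0.00695), Il18rap, a subunit of the IL-18 receptor, 0.43 higher (adjusted p = 0.00614), and Il18 itself 0.87 lower (adjusted p = 0.0162, and 0.0524 without KO HDM 3).

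Macrophages differed in some programmes and not in others. Arg1, the arginase of alternatively activated macrophages, was at 8.42, 8.41, 9.75 and 9.02 in WT HDM and at 10.48, 11.24, 11.79 and 9.83 in KO HDM. The groups did not overlap, although the lowest KO array, KO HDM 4, lay just above the highest WT array, and the difference was 1.94 (SE 0.38, 3.83-fold, limma adjusted p = 0.00515). Under saline Arg1 did not pass (-0.78, adjusted p = 0.66), and the interaction did (adjusted p = 0.0289). The alternative activation list as a whole had a median of 0.38, but of 16 members only Arg1 and the lectin Clec10a rose (0.46, adjusted p = 0.00764) and 0 fell. Without KO HDM 4 there were 6 that rose, and without WT HDM 3 there were 5. Standard members did not pass: Chil3 was 0.19 higher (SE 0.18, adjusted p = 0.561) and Retnla 0.01 higher (adjusted p = 0.985), both named after their values were seen.

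In the list of arginine use, which holds Arg1, 6 of 11 rose and 0 fell (median 0.30), and 3 rose without KO HDM 3. Nos2, the inducible nitric oxide synthase that competes with arginase for arginine, was at 8.47, 8.14, 8.84 and 8.42 in WT HDM and at 9.20, 9.48, 9.20 and 8.85 in KO HDM. KO HDM 4 lay just above WT HDM 3, the groups did not overlap, and the mean difference was 0.72 (SE 0.13, limma adjusted p = 0.0029). Odc1, the enzyme that starts polyamine synthesis from ornithine, was 0.63 higher (adjusted p = 0.00906), and Slc7a1, an arginine transporter, 0.40 higher (adjusted p = 0.0162, lost without WT HDM 2, KO HDM 1 or KO HDM 3, up to 0.0637).

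A pair of genes for cell fusion was among the largest rises. Ocstamp and Dcstamp encode membrane proteins that macrophages and osteoclasts need to fuse into multinucleated cells. Ocstamp was at 8.87, 8.66, 9.11 and 8.81 in WT HDM and at 10.36, 10.39, 10.54 and 9.54 in KO HDM. Dcstamp was at 8.99, 9.08, 9.05 and 8.71 in WT HDM and at 11.18, 10.29, 10.64 and 9.74 in KO HDM. In both genes all KO arrays were above all WT arrays and KO HDM 4 was the lowest knockout. The differences were 1.35 for Ocstamp (SE 0.17, limma adjusted p = 0.000277) and 1.51 for Dcstamp (SE 0.22, adjusted p = 0.000917). Of 12 genes on this list 3 rose and 0 fell, the remaining one being the integrin Itgb3 (0.32, adjusted p = 0.00713), and 5 rose without WT HDM 4 or KO HDM 4. Tarm1, an activating receptor of myeloid cells, was also among the leading genes (1.41, SE 0.19, adjusted p = 0.000621).

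Only part of the genes of resident alveolar macrophages went the other way, with 0 of 13 higher and 4 lower (median -0.12), and 2 lower without WT HDM 4 or KO HDM 3. They were Il18, the lipid droplet gene Cidec (-0.74, SE 0.13, limma adjusted p = 0.00272), which is also on the adipose list, the keratin Krt79 (-0.44, adjusted p = 0.0185) and Pparg, the transcription factor that sets alveolar macrophage identity (-0.40, adjusted p = 0.0196). The call for Pparg was lost without WT HDM 4 (adjusted p = 0.0605), and that for Krt79 without WT HDM 4, KO HDM 2 or KO HDM 3 (up to 0.0611). Of 11 monocyte and interstitial macrophage genes 1 rose and 0 fell (median 0.19), with 0 rises without WT HDM 1, 2 or 4 or KO HDM 1, 2 or 3, 2 without WT HDM 3 and 3 without KO HDM 4.

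Dendritic cell genes rose in number. Of 17 members 9 rose and 1 fell, with a median of 0.46, and 5 rose without WT HDM 2, KO HDM 1 or KO HDM 3. Cd209e, a C-type lectin of the DC-SIGN family, was at 9.13, 8.69, 8.90 and 8.89 in WT HDM and at 10.58, 10.89, 11.11 and 10.13 in KO HDM. No KO array came within 1 log2 unit of the WT mean of 8.90, the difference was 1.77 (SE 0.19, 3.42-fold, limma adjusted p = 0.000102), and it was unlike the saline difference of -0.30 (adjusted p = 0.00371). Its neighbour Cd209d was 0.85 higher (adjusted p = 0.0126). Lectins of this family are close in sequence, and whether the probes tell them apart was not tested. Fscn1, a marker of mature dendritic cells, was 0.58 higher (adjusted p = 0.00473). The member that fell was Clec9a, the marker of cross-presenting dendritic cells (-0.40, adjusted p = 0.00671, named after its value was seen). Of 10 genes of MHC class II and costimulation 1 rose and 0 fell, with 0 rises without WT HDM 2, KO HDM 1 or KO HDM 3 and 4 without KO HDM 4.

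Of 15 T cell genes 5 rose and 0 fell, with a median of 0.16, and 3 rose without KO HDM 3. Icos, the costimulatory receptor of activated T cells, was at 9.94, 9.41, 9.76 and 9.48 in WT HDM and at 10.74, 10.34, 10.55 and 10.12 in KO HDM. The groups did not overlap (0.79, SE 0.13, limma adjusted p = 0.0018). Ctla4 and Pdcd1, inhibitory receptors of activated and regulatory T cells, were higher by 0.74 (adjusted p = 0.00356) and 0.31 (adjusted p = 0.0105), and Il2ra, the IL-2 receptor alpha chain, by 0.66 (adjusted p = 0.0174, and 0.0528 without KO HDM 3). Of 9 B cell genes 0 passed the limma test in either direction and 5 had an unadjusted p under 0.05, with a median of 0.40. Without KO HDM 4 there were 4 that rose. Of 12 genes of NK and cytotoxic lymphocytes 0 passed the limma test and 1 had an unadjusted p under 0.05 (median -0.01). Of 11 plasma cell genes 2 rose and 0 fell, with 0 rises without WT HDM 2, KO HDM 2 or KO HDM 3, 1 without WT HDM 1, WT HDM 4 or KO HDM 1 and 4 without WT HDM 3. Of 10 genes of lymphoid homing 2 rose and 0 fell, with 0 rises without WT HDM 2 or KO HDM 1, 2 or 3 and 1 without WT HDM 4.

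Neutrophil genes passed at a share near that of all genes (8.3% in both lists, against 11.7%). Of 12 neutrophil genes and of 12 genes of neutrophil chemokines and type 17 cytokines, 1 each rose and 0 fell, with medians of 0.03 and 0.02, and the gene was Cxcr2 in both lists (0.99, SE 0.24, limma adjusted p = 0.0154). Of 20 other chemokine genes 3 rose and 0 fell (7 rose without KO HDM 4), led by the myeloid chemokine Ccl9 (0.99, SE 0.18, adjusted p = 0.00367). Of 12 innate sensors of mite components 1 rose and 0 fell, the adaptor Myd88 (0.35, adjusted p = 0.00717). Several lists passed at a share near or below the 11.7% of all genes. The share was 8.3% for these sensors, 9.1% for monocyte genes and 12.5% for alternative activation genes. It was 10.0% for MHC class II, smooth muscle and skeletal muscle genes, and 6.2% for cholesterol synthesis and immediate early genes.

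Interferon response genes were higher in part. Of 12 antiviral genes 5 rose and 0 fell, with a median of 0.42. The count was 0 without WT HDM 4, KO HDM 2 or KO HDM 3 and 1 without WT HDM 1 or WT HDM 2. Irf7, the transcription factor that amplifies the interferon response, was at 9.20, 9.30, 9.62 and 9.26 in WT HDM and at 9.52, 10.47, 10.91 and 9.77 in KO HDM. KO HDM 1 lay below the highest WT array, and KO HDM 2 and 3 carried most of the difference of 0.82 (SE 0.23, limma adjusted p = 0.0266). The calls of Irf7 and Oasl2 (0.66, adjusted p = 0.0329) were lost without WT HDM 1, WT HDM 2, WT HDM 4, KO HDM 2 or KO HDM 3, up to 0.0866 and 0.0907. Usp18, a brake on interferon signalling, was 0.71 higher (adjusted p = 0.0215, lost without WT HDM 4, KO HDM 2 or KO HDM 3, up to 0.0696). Of 12 acute phase and complement genes 1 rose and 2 fell, with 0 falls without WT HDM 4, KO HDM 1 or KO HDM 3.

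Of 20 proliferation genes 14 rose and 0 fell, with a median of 0.48. The count was 2 without KO HDM 1, 3 without WT HDM 2 and 4 without KO HDM 3. Top2a, the topoisomerase of dividing cells, was between 8.34 and 9.20 on the WT HDM arrays and at 10.28, 9.70, 9.79 and 9.10 in KO HDM. Only KO HDM 4 lay within the WT range, and the difference was 0.89 (SE 0.22, limma adjusted p = 0.0162, lost without WT HDM 2 or KO HDM 1, up to 0.0615). The replication helicase subunit Mcm6 was 0.79 higher (adjusted p = 0.0178) and the spindle motor Kif11 0.84 higher (adjusted p = 0.0228), both lost without WT HDM 2, KO HDM 1 or KO HDM 3, and Mcm6 also without KO HDM 2, with adjusted p up to 0.0598 and 0.087. Among 93 nuclear-encoded subunits of the respiratory chain 21 rose and 2 fell (median 0.10), and 11 rose without WT HDM 4 or KO HDM 2, 12 without KO HDM 3 and 13 without KO HDM 1. Examples were Sdhc of complex II (0.42, SE 0.07, adjusted p = 0.00228) and Ndufb11 of complex I (0.41, SE 0.07, adjusted p = 0.00228).

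Of 18 matrix genes 9 rose and 0 fell (median 0.28), between 7 and 10 rose on leaving out any 1 HDM array, and 4 of the 18 also differed from their saline difference. Tnc, the injury-induced matrix protein tenascin C, was at 9.09, 9.22, 9.43 and 9.11 in WT HDM and at 10.29, 10.10, 10.54 and 10.35 in KO HDM. All 4 knockouts, KO HDM 4 included, were higher, by 1.11 (SE 0.13, 2.16-fold, limma adjusted p = 0.000126). Eln, elastin, was at 11.01, 10.84, 11.01 and 10.79 in WT HDM and at 11.93, 11.49, 11.59 and 11.98 in KO HDM, again without overlap (0.83, SE 0.10, adjusted p = 0.000252). Col3a1, fibrillar collagen III, rose by 0.45 (SE 0.06, adjusted p = 0.000661). Timp1, an inhibitor of matrix proteases, had a larger mean difference of 1.64 but a wider spread, from 8.70 to 9.73 in WT HDM and from 9.71 to 11.86 in KO HDM, which overlapped (SE 0.37, adjusted p = 0.011). The matrix list kept its median with the clock score in the fit (0.27), while that of the type 2 chemokines went from 0.75 to 0.30 and that of the eosinophil genes from 0.38 to -0.09.

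**Figure D3:**
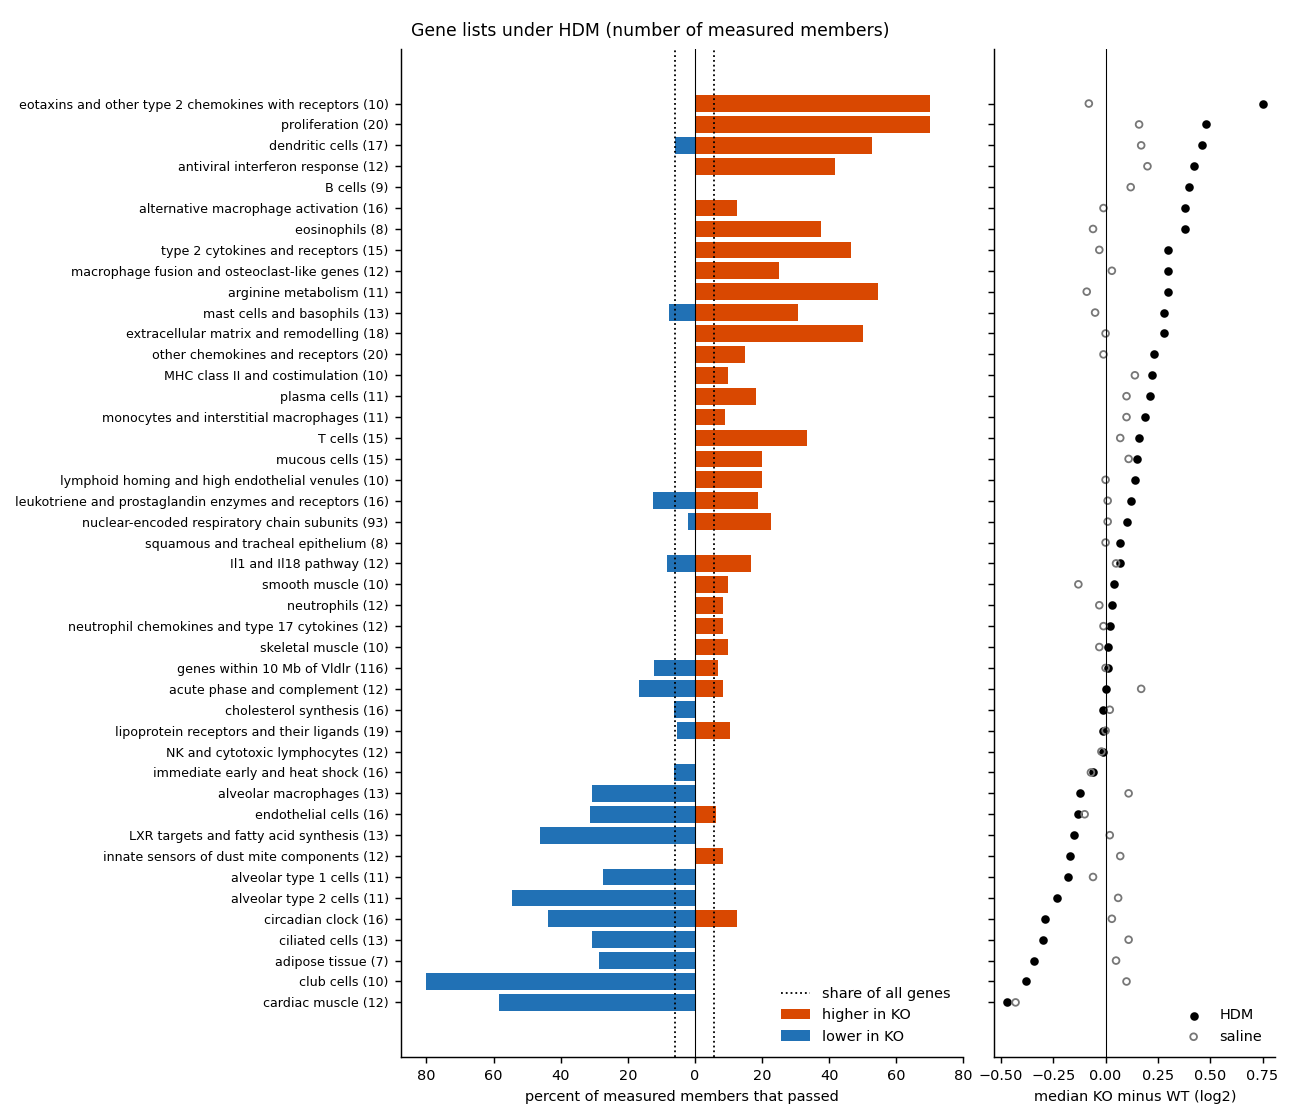
The left panel plots, for each gene list with its number of measured members, the percentage that was higher (orange) or lower (blue) in KO HDM than in WT HDM at an adjusted p under 0.05, with dotted lines at the shares of all genes (5.84% and 5.83%); the right panel plots the median log2 difference under HDM (filled) and saline (open). Type 2 chemokines and proliferation genes reach the highest shares upward (7 of 10 and 14 of 20) and club cell genes downward (8 of 10), and cardiac genes have low medians under both treatments.

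Epithelial genes fell in part. Of 10 genes of club cells, the secretory cells of the small airways, 8 fell and 0 rose (median -0.38). The count was 3 without WT HDM 2 or KO HDM 1 and 5 without WT HDM 4 or KO HDM 3. Scgb1a1, the main club cell secretion, was at 12.97, 13.12, 13.29 and 13.66 in WT HDM and at 11.82, 12.22, 12.24 and 13.01 in KO HDM. KO HDM 4 alone reached the WT range, and the difference was -0.94 (SE 0.23, limma adjusted p = 0.0153, and 0.0595 without KO HDM 1). Scgb3a2, a related secretoglobin, fell by 0.65 (adjusted p = 0.00786), and with the clock score in the fit its difference was 0.01 (SE 0.16). The mean level of the list was 11.86 to 12.13 over the WT HDM arrays and 11.46 to 11.92 over the KO HDM arrays, while the saline arrays of both genotypes lay between 11.79 and 12.07.

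Of 13 genes of ciliated cells 4 fell and 0 rose (median -0.30). Without single HDM arrays between 2 (WT HDM 2 or KO HDM 1) and 8 (WT HDM 3) fell. Sntn, a protein of the tips of airway cilia, was at 10.68, 11.26, 10.78 and 11.48 in WT HDM and at 9.45, 10.08, 9.86 and 10.00 in KO HDM. The groups were apart by more than their spread (-1.20, SE 0.16, 2.30-fold lower, limma adjusted p = 0.000453), and the difference was unlike that under saline (-0.14, interaction adjusted p = 0.0367). Tppp3, a microtubule protein of ciliated cells, fell by 0.54 (adjusted p = 0.0029). Cdhr3, a cadherin of ciliated cells that serves as the receptor of rhinovirus C, fell by 0.90 (SE 0.17, adjusted p = 0.00455). Of 11 alveolar type 2 genes 6 fell and 0 rose (median -0.23), among them the lamellar body protein Lamp3 (-0.34, adjusted p = 0.00519) and Etv5, a transcription factor these cells depend on (-0.32, adjusted p = 0.00963). Of 11 alveolar type 1 genes 3 fell and 0 rose (median -0.18). The count was 0 without KO HDM 1 or KO HDM 3, 1 without WT HDM 1, WT HDM 2 or KO HDM 2, and 6 without KO HDM 4.

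Of 15 mucous genes 3 rose and 0 fell (median 0.15), and 5 rose without WT HDM 1 or KO HDM 4. Slc26a4, the anion exchanger pendrin that HDM and IL-13 induce in airway epithelium, was at 10.66, 9.97, 10.64 and 10.28 in WT HDM and at 11.47, 11.47, 11.74 and 10.98 in KO HDM, without overlap (1.03, SE 0.17, limma adjusted p = 0.00191). Itln1, intelectin, and Retnlb, a resistin-like molecule, rose by 0.63 (adjusted p = 0.00842) and 0.50 (adjusted p = 0.00593). The main goblet cell genes did not pass: Clca1 differed by -0.11 (SE 0.46, adjusted p = 0.915) and Muc5ac by -0.08 (SE 0.20, adjusted p = 0.853), both named after their values were seen.

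Of 16 endothelial genes 5 fell and 1 rose. The count of falls was 1 without KO HDM 1 or KO HDM 3, 2 without WT HDM 1, WT HDM 2 or KO HDM 2 and 3 without WT HDM 4, and in each of these 0 rose. Kdr, the VEGF receptor, fell by 0.52 (limma adjusted p = 0.00557). Of 10 smooth muscle genes 1 rose and 0 fell. Cardiac genes, which can reach a lung sample through the muscle sleeve of the pulmonary veins, fell in part, with 7 of 12 passing downward and 0 upward (median -0.47), and 3 without WT HDM 2 or KO HDM 3 and 4 without KO HDM 1. Their mean level was 9.74 to 10.10 over the WT HDM arrays and 9.24 to 9.74 over the KO HDM arrays, and the median was also low under saline, at -0.43, where 0 passed the limma test and 11 had an unadjusted p under 0.05. The atrial myosin Myh6 fell by 0.77 (SE 0.15, adjusted p = 0.00552) and Pln, phospholamban, by 0.91 (SE 0.20, adjusted p = 0.00869), while the ventricular Myl2 was low in both groups, with means of 7.79 and 7.78 (named after its value was seen). Of 10 skeletal muscle genes 1 rose and 0 fell, of 7 adipose genes 0 rose and 2 fell (Cidec, counted above, and Plin1, a coat protein of lipid droplets, by 0.39 with an adjusted p of 0.0126; list median -0.34), and of 8 squamous and tracheal genes 0 passed and 0 had an unadjusted p under 0.05. How far the share of heart or fat tissue in a sample plays a part in other calls was not tested.

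Lipid genes, the pathway of the deleted receptor, showed small differences. Of 19 lipoprotein receptors, their ligands and adaptors, 2 rose and 1 fell, with a median of -0.01. The share of 15.8% was near the 11.7% of all genes. Without WT HDM 1, 2 or 4 or KO HDM 1, 2 or 3 these counts were 1 and 0, and without KO HDM 4 they were 3 and 3. Apoe, the main ligand, was at 12.30, 12.28, 12.41 and 12.37 in WT HDM and at 12.16, 12.34, 12.10 and 12.07 in KO HDM, which overlapped (-0.17, SE 0.08, limma adjusted p = 0.202). Lrp8, the closest relative of Vldlr and the other reelin receptor, differed by 0.12 (SE 0.07, adjusted p = 0.252). Thbs1, thrombospondin 1, which also binds these receptors, was the largest rise of the list (0.54, SE 0.09, adjusted p = 0.00228), and its saline difference of -0.14 was unlike it (adjusted p = 0.0232). Targets of the sterol sensor LXR and genes of fatty acid synthesis fell in 6 of 13 cases and rose in 0 (median -0.15), with 1 call without WT HDM 2 or KO HDM 2, 2 without KO HDM 3 and 3 without WT HDM 1, WT HDM 4 or KO HDM 1. They included the sterol exporter Abcg1 (-0.35, adjusted p = 0.0141, and 0.05 without KO HDM 3) and Nr1h3, which encodes LXR alpha (-0.33, adjusted p = 0.0211, lost without WT HDM 2 or KO HDM 2, up to 0.0586). Of 16 cholesterol synthesis genes 1 fell and 0 rose, the sterol regulator Insig1 (-0.28, adjusted p = 0.0131).

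The genes of the clock itself separated the groups, some lower and some higher in the knockouts. Phase itself was not measured. Of 16 members 7 fell and 2 rose (median -0.29). Dbp, a transcription factor with one of the strongest daily rhythms, was at 11.12, 11.15, 10.60 and 11.00 in WT HDM and at 9.51, 9.76, 9.73 and 10.19 in KO HDM. KO HDM 1, 2 and 3 lay within the range of the saline arrays, 9.45 to 9.86, KO HDM 4 above it, and the WT HDM arrays stood above all others (KO minus WT -1.17, SE 0.13, limma adjusted p = 0.000126). Tef, a related factor, and Nr1d1, the repressor REV-ERB alpha, fell by 0.58 (adjusted p = 0.00399) and 0.69 (adjusted p = 0.00682). Nfil3, which acts against Dbp, rose by 0.62 (adjusted p = 0.00422), and Arntl, the activator BMAL1, by 0.40 (adjusted p = 0.0118, named after its value was seen). Of 16 immediate early and heat shock genes 1 fell and 0 rose.

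Among the named genes Hal had the largest fall, ahead of Trim12a (-2.72, described below). Hal encodes histidine ammonia-lyase, which starts the breakdown of histidine. Its level was 10.78, 10.55, 11.79 and 11.09 in WT HDM and 8.02, 8.12, 7.84 and 7.94 in KO HDM. The KO HDM arrays were at the level of the KO saline arrays, which lay between 7.81 and 8.42, while WT HDM arrays stood above WT saline arrays at 8.14, 9.39, 9.31 and 7.88. The difference of -3.07 (SE 0.29, 8.40-fold lower, limma adjusted p = 3.47e-05) was unlike the saline difference of -0.59 (adjusted p = 0.0126), and with the clock score as a covariate it was -3.98 (adjusted p = 0.003).

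Fam107a, an actin-binding protein that glucocorticoids induce, was at 11.85, 12.16, 11.90 and 12.36 in WT HDM and at 10.43, 10.28, 10.37 and 10.60 in KO HDM. The gap between the groups was wider than either group's range (-1.65, SE 0.11, 3.13-fold lower, limma adjusted p = 7.84e-07), and Fam107a was also lower under saline (-0.62, adjusted p = 0.0245), by less (interaction adjusted p = 0.00988). Cyp2e1, a cytochrome P450 of the lung and liver, was at 9.97, 10.53, 9.88 and 10.05 in WT HDM and at 8.82, 9.26, 8.75 and 9.08 in KO HDM (-1.13, SE 0.16, adjusted p = 0.000649). Pon1, paraoxonase 1, was 1.28 lower (SE 0.25, adjusted p = 0.00481) with KO HDM 4 at 9.52 just under the lowest WT array at 9.64. The 15 largest rises and 15 largest falls were taken only from calls whose groups did not overlap, a choice that favours calls that hold. It left out Mcpt1 and Mcpt2, whose groups overlapped and whose calls were lost without some arrays. Each of these 15 rises, and 14 of these 15 falls, passed without any 1 of the 16 arrays. The exception was Trim30d (limma adjusted p = 0.0525 without KO HDM 1). In a fit of the 8 HDM arrays alone 13 of these rises and 12 of these falls passed.

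The antiviral TRIM genes Trim12a and Trim30d showed a split within the WT saline group. Trim12a was at 9.31, 9.83, 9.53 and 9.34 in WT HDM and at 6.46, 6.72, 6.81 and 7.16 in KO HDM (-2.72, SE 0.49, 6.57-fold lower, limma adjusted p = 0.00322). In WT saline it was at 6.60, 6.45, 9.63 and 8.86, so that replicates 1 and 2 read at the KO level and replicates 3 and 4 at the WT HDM level, while the KO saline arrays were all between 6.66 and 6.86. Trim30d had the same pattern, with 6.60, 6.42, 9.42 and 9.22 in WT saline and a difference of -1.97 under HDM (SE 0.49, adjusted p = 0.0164). Members of this family are near copies of each other, and whether the probes tell them apart was not tested. All 4 WT HDM arrays were high for both genes and all 8 KO arrays low, and whether this follows genotype or strain background cannot be told apart.

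**Figure D4:**
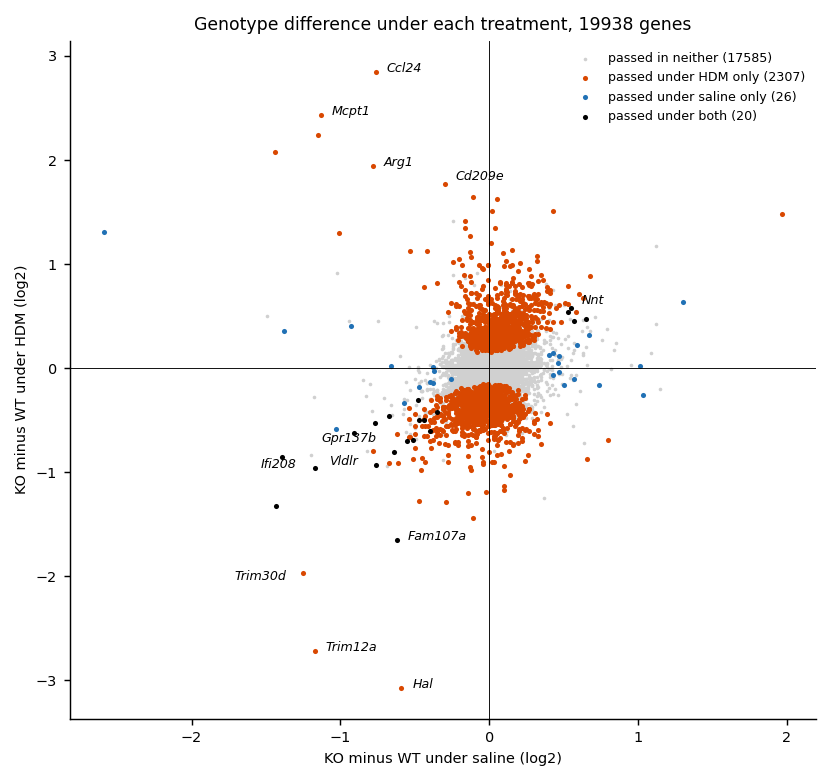
Each point is 1 of 19938 genes, with its KO minus WT difference under saline on the x axis and under HDM on the y axis (log2, 4 arrays a group), coloured by whether it passed in the comparisons. The 20 genes that passed in both (black) lie at the lower left and upper right, and Ccl24, Arg1 and Cd209e stand at 2.85, 1.94 and 1.77 under HDM with values below 0 under saline.

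A small set of genes differed by genotype with and without allergen. The 2 comparisons share no array, and 20 genes passed in both, all 20 in the same direction, 4 higher and 16 lower. That is 43.5% of the saline calls and 0.86% of the HDM calls. Nnt, the mitochondrial transhydrogenase, was at 10.56, 10.56, 10.49 and 10.53 in WT HDM and at 11.12, 11.19, 11.14 and 11.00 in KO HDM (0.58, limma adjusted p = 6.43e-05), and its saline difference was 0.55 (adjusted p = 0.000619). The lysosomal membrane protein Gpr137b was lower by 0.81 under HDM and 0.64 under saline, and the NKG2D ligand H60b by 0.50 and 0.44. Rpp14, an RNase P subunit, was lower by 0.60 and 0.40, and Ifi208, an interferon-inducible gene of the p200 family, by 0.96 and 1.17. All of these passed in both comparisons, and none of Nnt, Gpr137b, H60b, Rpp14 and Ifi208 differed between treatments (interaction adjusted p = 0.912, 0.554, 0.784, 0.376 and 0.681). Strain background and genotype cannot be told apart here. Genes close to a deleted allele tend to be inherited with it. Of 116 genes within 10 Mb of Vldlr, itself not counted, 8 rose and 14 fell under HDM (19.0%, against 11.7% of all genes). The count of falls was 5 without KO HDM 1, 6 without WT HDM 2, 7 without KO HDM 3 and 9 without WT HDM 4 or KO HDM 2. That of rises was 4 without KO HDM 2 or KO HDM 3, 5 without WT HDM 1, 2 or 4, and 14 without KO HDM 4. Under saline 0 of them passed the limma test and 11 had an unadjusted p under 0.05. The largest difference was in Papss2, which makes the sulfate donor PAPS (-0.90, SE 0.13, adjusted p = 0.000692), and its saline difference was -0.04. The 4 sex-linked genes checked gave 0 calls and 0 with an unadjusted p under 0.05.

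Part of a run of imprinted genes on chromosome 12, noticed after the values were seen, was higher. Between Dlk1 and Dio3, 13 of 48 measured genes rose (27.1%) and 0 fell, with a median of 0.15, and 9 to 16 rose on leaving out 1 HDM array. Under saline 0 passed the limma test and 4 had an unadjusted p under 0.05. Genes of this interval that are read from the maternal chromosome include the long RNA Meg3 and a long array of small RNAs behind it, and Dlk1 is read from the paternal one. Meg3 was at 9.12, 9.34, 9.31 and 9.41 in WT HDM and at 10.08, 10.09, 10.38 and 10.53 in KO HDM. All KO arrays were higher, KO HDM 4 the highest of them (0.98, SE 0.10, limma adjusted p = 6.97e-05), and with the clock score in the fit the difference was 1.13 (adjusted p = 0.0403). Mir380 was at 5.78, 5.49, 5.62 and 5.16 in WT HDM and at 6.67, 6.88, 6.65 and 6.64 in KO HDM (1.20, SE 0.11, adjusted p = 3.47e-05). Both genes were read clear of overlap, and so was Dlk1 (0.53, SE 0.08, adjusted p = 0.000917), while Rtl1 (-0.01) and Dio3 (0.13, adjusted p = 0.391) did not pass. Further microRNA genes that rose were Mir377 (0.79, adjusted p = 0.0166), Mir382 (0.66, adjusted p = 0.00297), Mir329 (0.63, adjusted p = 0.0033) and Mir323 (0.48, adjusted p = 0.0029). The arrays read labelled RNA at the place of these genes and cannot tell a mature microRNA from its longer precursor. The differences of Mir380, Mir323 and Mir329 also differed from those under saline (interaction adjusted p = 0.00392, 0.0232 and 0.0367). Their mature forms are shown for that reason, from RefSeq (GRCm38.p6), 5′ to 3′, with the seed (bases 2 to 8) in capitals.
mmu-miR-380-5p: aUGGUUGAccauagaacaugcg
mmu-miR-380-3p: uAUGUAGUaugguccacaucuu
mmu-miR-323-5p: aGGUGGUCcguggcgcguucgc
mmu-miR-323-3p: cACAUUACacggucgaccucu
mmu-miR-329-5p: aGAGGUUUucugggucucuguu
mmu-miR-329-3p: aACACACCcagcuaaccuuuuu
Each of the 6 has a seed of its own.

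**Figure D5:**
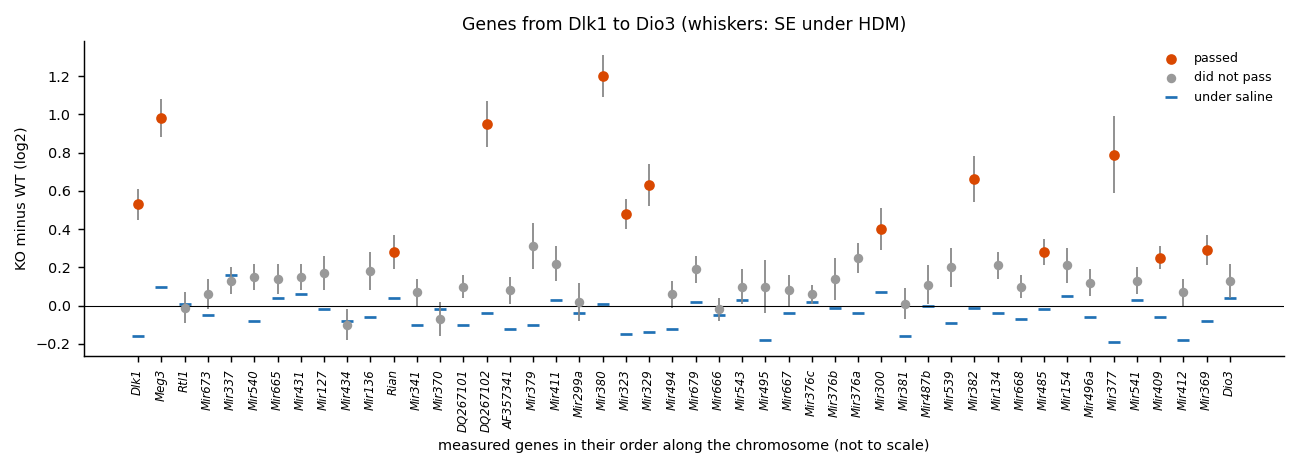
KO minus WT difference (log2) of the 48 measured genes from Dlk1 to Dio3 in their order along the chromosome, with SE whiskers under HDM (orange where passed, grey where not) and blue dashes for the same difference under saline. The 13 genes that passed are all above 0, led by Mir380 at 1.20 and Meg3 at 0.98, with genes near 0 between them.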

How the data were processed

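RNA of whole mouse lung was measured on 16 one-colour Affymetrix arrays, 4 per genotype and treatment. The authors' deposited values are log2 RMA intensities per probe set, with Affymetrix Expression Console and RMA named per the submitters' processing notes; their versions, the build and the annotation were not named there. RMA equalises the arrays' distributions, so a shift of most genes in one direction would be reduced. The number of arrays limits the precision, and no sequencing depth applies. Of 35556 probe sets, 21789 had 1 gene symbol, 1621 several and 12146 none; the highest-mean probe set per symbol gave 19938 genes.

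Group means of all 16 arrays were fitted with limma 3.58.1 in R 4.3.3 (lmFit, eBayes, two-sided, Benjamini-Hochberg over all genes, adjusted p under 0.05), which was tested on simulated data. No filter or covariate was used. Differences are KO minus WT. Alternatives were other normalizations, filters, variance settings, array weights, 2-group fits, probe set means, a replicate block, a clock covariate, a 2-fold threshold and leaving out arrays.

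Named genes were Vldlr, the 15 largest rises and 15 largest falls without overlap between groups (predicted genes, small RNAs and receptor segments left out) and up to 4 members of each list. To these came the genes with the smallest p under HDM among those that passed under HDM and saline in the same direction. Apoe, Lrp8, Ccl11, Ccl17, Ccl22 and Ccl24 were named in any case. No gene was taken by its p in the interaction, and the text gives a selection of the named genes. Members and lists were chosen with earlier results of these data known. The leave-one-out of genes named outside this rule and of gene families was chosen after seeing the data.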

Additional observations from a re-analysis of the deposited data

Results flagged for a closer look

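Among 134 of the genes named in the text, 4 arrays a group, 18 of 536 groups (3.4%) were flagged. Each held 1 array whose gap to the nearest of the others exceeded Dixon's critical share of the group's range. Chance alone exceeds that share in about 1 of 20 groups. In KO HDM, array 4 stood apart for Mcm6 (9.71, against 10.27 to 10.30 in the others), Nr1d1 (12.20, against 11.53 to 11.63), Hopx (11.79, against 11.47 to 11.52) and Tm4sf19 (11.75, against 12.86 to 13.07). For each of these it lay on the side of the WT HDM arrays. Array 3 stood apart for Thbs1 (12.72) and Rps3a1 (11.00), and array 2 for Mir380 (6.88). In KO saline, array 1 stood apart for Dlk1 (9.22), H60b (6.73), Mir382 (6.51), Retnlb (7.17) and Trim12a (6.86), array 2 for Irf7 (9.94), array 3 for Cxcr2 (9.59) and array 4 for Chil3 (11.39) and Cyp2e1 (10.42). In WT saline, array 4 stood apart for H60b (7.10) and array 1 for Il18rap (8.58).

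For 36 of the 134 genes the KO minus WT difference under HDM differed from that under saline (limma interaction, adjusted p under 0.05). Of all 19938 genes 160 did (0.802%). Many of the 134 were named for their HDM difference and this test uses the same arrays, so a higher share was built in. Without WT saline 2 and 3 only 12 of all genes passed, and which of the 36 were among them was not tested. Among chemokines and cytokine receptors the HDM difference minus the saline difference was 3.61 for Ccl24, 1.17 for Ccl11, 1.02 for Ccr8 and 0.68 for Il17rb. It was 3.90 for Rnase2a, 1.26 for Rnase2b and 1.48 for Ear6, ribonucleases of the same family. Of these only Ear6 was on the eosinophil list, and Rnase2a was on the alternative activation list. In myeloid genes it was 2.71 for Arg1, 0.81 for Nos2, 0.63 for Slc7a1, 2.07 for Cd209e, -0.57 for Clec9a, 1.51 for Ocstamp, 1.57 for Tarm1 and 1.05 for Atp6v0a4. Alveolar macrophage and sterol genes gave -1.54 for Il18, -0.83 for Krt79 and -0.52 for Abcg1. Matrix genes gave 1.02 for Tnc, 0.69 for Eln, 0.43 for Col3a1 and 0.68 for Thbs1. Epithelial genes gave -1.07 for Sntn, -0.98 for Scgb3a2, -0.54 for Lamp3, 0.89 for Itln1 and -1.23 for Cyp2e1. From Dlk1 to Dio3 the values were 0.70 for Dlk1, 0.88 for Meg3, 1.19 for Mir380, 0.63 for Mir323 and 0.77 for Mir329. The rest were -2.48 for Hal, -1.03 for Fam107a, -1.27 for Dbp, -0.86 for Papss2 and 1.05 for Atp6v0a4. In Rnase2a the saline difference itself passed, and WT saline 2 and 3 were its highest saline arrays.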

How the results depend on the processing

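Under HDM the count of 2327 genes stayed within 1.5 times under the other normalizations, filters, variance settings, array weights and probe set means (1923 to 3035), as it did without WT saline 2 and 3 (1790). It was 390 in a fit of the HDM arrays alone, 42 at 2-fold, 4 with the clock score, and 968 to 3831 on leaving out 1 array. The saline count of 46 was 19 with the filter at the 50th percentile, 110 with array weights, 98 in the 2-group fit, 10 without WT saline 2 and 3, 9 at 2-fold, and 14 to 66 on leaving out 1 array. The count of 160 for the difference between treatments was 680 with array weights, 12 without WT saline 2 and 3, 27 at 2-fold, 0 with the clock score (858 at an unadjusted p under 0.05 in limma), and 41 to 1019 on leaving out 1 array. The share of these that was higher went from 44.4% to 66.7% without WT saline 2 and 3. With the clock score Ccl8 turned to -0.02, Cxcl13 to -0.02, Hopx to 0.03 and Scgb3a2 to 0.01; the cause was not tested.

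Same-numbered KO HDM and WT HDM arrays deviated together with correlations of 0.10, 0.07, 0.18 and -0.13, so the numbers were not taken as pairs. With the replicate block 2519 genes passed under HDM, 52 under saline and 258 for the difference between treatments. The 2-group fit kept 54 of the 139 named genes that had passed, and 85 of the 139 passed without each of the 16 arrays in turn. The precision is limited by 4 arrays a group, and for dim probe sets by the signal over background.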

Other observations

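Of 31 measured genes with a Cfap symbol, which encode cilia and flagella associated proteins, 15 passed downward and 0 upward (48.4%, median -0.31, against 5.83% of all genes downward). The count was 3 without WT HDM 2, 4 without KO HDM 1 and 7 without WT HDM 4 or KO HDM 3. Of 15 Dnah genes, the heavy chains of ciliary dynein, 3 fell and 0 rose, and of 14 Ift genes of transport within cilia 4 fell and 0 rose, with 0 Dnah and 1 Ift calls without KO HDM 1, and 8 Dnah calls without WT HDM 3. Of 19 core proteasome genes (Psma and Psmb) 8 rose and 0 fell (42.1%, median 0.17, against 5.84% of all genes upward), and 7 or 8 rose on leaving out any 1 HDM array. Of 9 Cct genes of the chaperonin that folds actin and tubulin 4 rose and 0 fell (44.4%). There was 1 rise without WT HDM 4 or KO HDM 1, 2 or 3. Of 44 collagen genes 11 rose and 1 fell (27.3%, against 11.7% of all genes in either direction), and 4 fell without KO HDM 4. These families were chosen after the values were seen.

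Several further genes, also chosen after their values were seen, stood out by array. Tm4sf19, a membrane protein of lung macrophages and osteoclasts, was at 9.31, 9.04, 12.21 and 11.10 in WT HDM and at 13.07, 12.94, 12.86 and 11.75 in KO HDM (2.24, SE 0.55, limma adjusted p = 0.0164, lost without WT HDM 2 or KO HDM 1, up to 0.058). WT HDM 3 reached above the lowest knockout. Atp6v0a4, a subunit of a proton pump, was 0.99 higher without overlap (SE 0.17, adjusted p = 0.00244). Which cells it came from was not tested.

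WT saline arrays were far apart in Rnase2a, an eosinophil-associated ribonuclease, which was at 8.54, 11.47, 11.22 and 9.68 in WT saline and at 8.26, 7.55, 8.09 and 6.63 in KO saline (KO minus WT -2.59, limma adjusted p = 0.0322). Under HDM it was at 11.40, 11.27, 12.42 and 11.54 in WT and at 13.10, 13.07, 13.19 and 12.52 in KO (1.31, adjusted p = 0.0935). WT saline 2 and 3 thus lay at the level of the WT HDM arrays. Clca1, a goblet cell gene, had the same order in WT saline, at 8.55, 11.91, 11.46 and 10.79.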
